A study of Rattus norvegicus with 4 samples.

Results

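The genes described here encode enzymes that remove superoxide and peroxides: the superoxide dismutases Sod1, Sod2 and Sod3, the catalase Cat, and the glutathione peroxidases Gpx1, Gpx2, Gpx3, Gpx4 and Gpx7. Each array probe was assigned to a gene by its RefSeq accession, and every probe of these 9 genes was taken, which gave 11 probes among 21109 named probes for 16581 genes. RNA came from NR8383 cells, a macrophage line established from the lung lavage of a normal rat, used after 20 passages and grown with both adherent and floating cells. The cells were exposed for 4 h to Printex90, a commercial carbon black, at a dose of 0.9 cm2/cm2, which carries the further label ALI, and 4 replicates, biological by the series design, were each measured on 1 one-colour Agilent array. Cells without particles, also named in the design, were not analysed here. Every value is therefore a level or a spread among exposed cultures, and none measures an effect of Printex90. Nothing beyond the word biological says how separate the cultures were, and the p-values measure only the spread between these samples or their spots.

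Superoxide dismutases turn superoxide into hydrogen peroxide, and catalase and the glutathione peroxidases remove that peroxide, the latter at the cost of reduced glutathione. Macrophages make superoxide on purpose with an NADPH oxidase when they take up particles or microbes, so their own cytosol, mitochondria and membranes need these enzymes. Of the glutathione peroxidases described here, Gpx1, Gpx2, Gpx3 and Gpx4 carry selenocysteine in the active site, and Gpx7 carries cysteine there.

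The arrays differed in overall brightness, with a 75th percentile of probe intensity between 83.8 and 127, highest on replicate 4. A level is given as log2 intensity minus that percentile of the same array, and levels of different probes are not set against each other. Detection means that the scanner software marked at least 1 spot of a probe as well above background, and a gene counts as detected through any of its probes. Replicates 1 to 4 detected 55.1%, 55.7%, 53.8% and 60.2% of the named genes. Of the 7 macrophage markers measured, 5 were detected on all 4 arrays, with Cd68 at a level of 7.56 ± 0.21 and Csf1r at 1.24 ± 0.18 (SD, n = 4), while Adgre1 was detected on 2 arrays and Marco on 1. None of 5 alveolar epithelial, 4 general epithelial or 3 hepatocyte markers was detected on all arrays, against 1 of 4 fibroblast (Dcn), 2 of 3 endothelial (Pecam1, Cdh5), 1 of 4 erythroid (Hba-a1) and 1 of 3 neutrophil markers (Camp). Of the 4 erythroid markers, Hba-a1 had levels between 1.825 and 2.27 over the arrays. Slc4a1 was detected on 1 array, and Hbb and Alas2 on none. The part of these markers in the levels below was not tested.

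Of the 9 antioxidant enzyme genes, 6 were detected on all 4 arrays, namely Sod1, Sod2, Sod3, Cat, Gpx1 and Gpx4, beside 50.8% of all named genes. Gpx2 and Gpx3 were detected on no array, as were 36.9% of named genes, and Gpx7 was detected on 1 array, where 12.3% of named genes were detected on some arrays but not all. Both probes of Gpx1 and both of Gpx4 were detected on all arrays.

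**Figure D1:**
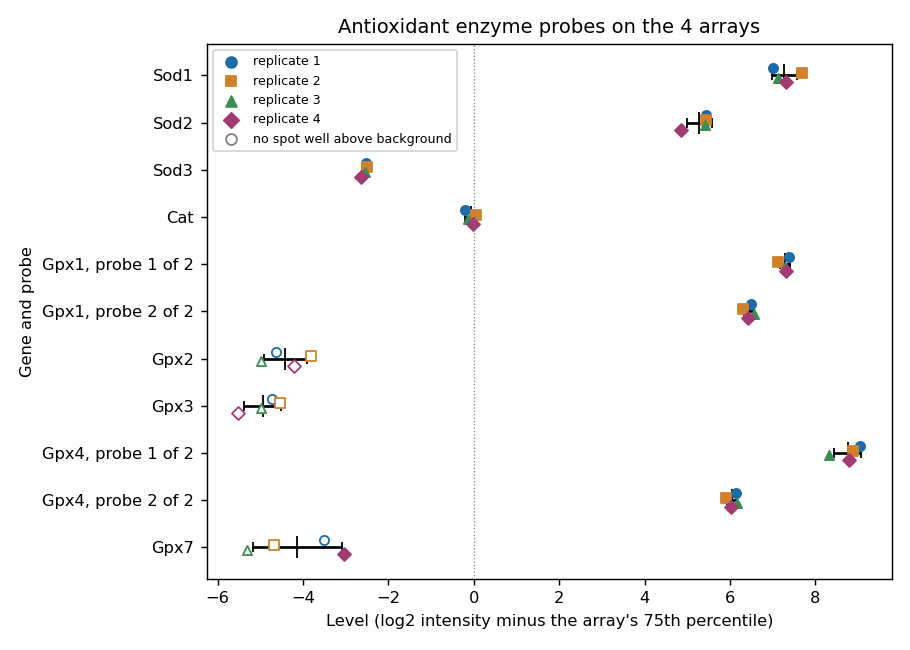
Level of each probe (log2 intensity minus the 75th percentile of its array) for 11 probes of 9 genes, with 1 symbol per replicate, the vertical bar at the mean and the horizontal bar showing the SD (n = 4). Open symbols have no spot well above background: all symbols of Gpx2 and Gpx3 are open, as are those of Gpx7 on replicates 1 to 3.

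Sod1, the copper-zinc dismutase of the cytosol, was measured by 1 spot. Its processed intensity was 12710 on replicate 1, 17280 on replicate 2, 14090 on replicate 3 and 20060 on replicate 4. The levels were 6.998, 7.69, 7.12 and 7.30 in the same order, with a mean of 7.28 ± 0.30 (SD, n = 4). Scaling thus made replicate 2 the highest, 0.55 log2 units above the mean of the other arrays, whereas replicate 4 was highest in unscaled intensity and replicate 3 with the array median as scale. Of all detected genes, 98.1% had a lower deviation on that array. The gap of replicate 2 to the next array was 0.559 of the range, under the 95% critical value of Dixon's test for 4 samples.

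Sod2, the manganese dismutase of mitochondria and a gene known to be induced through NF-kB, had levels of 5.43, 5.44, 5.41 and 4.85 on replicates 1 to 4 (mean 5.28 ± 0.29, SD, n = 4). Replicates 1 to 3 lay close together and replicate 4 lay 0.58 below their mean. Its gap was 0.957 of the range, past Dixon's 95% critical value. That mark was passed by 5.35% of the detected genes, on any array and in either direction. With replicate 4 low 0.748% passed, but this class is the one Sod2 fell in and is no measure of rarity. Sod2 was the only one of the 6 detected members, all tested, to pass the critical value. The unscaled intensities were 4283, 3636, 4306 and 3672, so before scaling replicate 4 did not stand apart and lay beside replicate 2 (gap 0.058 of the range on the low side). The gap also stayed under the critical value with quantile normalization (0.675), with the array median (0.466) and with normexp background correction (0.618). The gap was past the critical value with the 75th percentile over detected probes (0.85), with bright regions left out (0.93) and with flagged spots kept (0.971).

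The single Sod2 spot lay in a part of the slide where other spots were also low on replicate 4. Among 114 detected spots within 8 rows and 8 columns, the median deviation of replicate 4 from the other arrays was -0.18, and the central 90% of them lay between -0.59 and 0.15. Sod2 itself deviated by -0.58, and 8 of these spots were at or below it. On the other arrays the surrounding spots had median deviations of 0.03, -0.10 and 0.31 (replicates 1 to 3). With the deviation of the surroundings subtracted on all 4 arrays, the Sod2 levels were 5.40, 5.52, 5.19 and 4.99, with replicate 4 still lowest, a gap of 0.383 of the range and an SD of 0.23. Subtracted on replicate 4 alone it left a gap of 0.943, still past the critical value. Subtracted on replicate 3 alone it left a gap of 0.581, so the smaller gap came mainly with the shift of replicate 3.

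**Figure D2:**
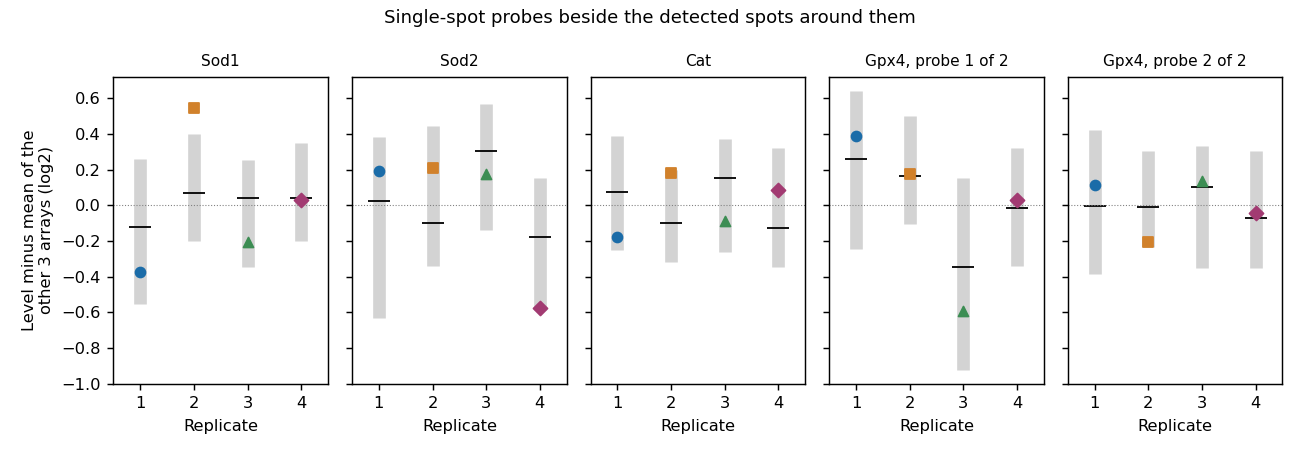
Deviation of each single-spot probe from the mean of the other 3 arrays (coloured symbols, log2 units), by replicate, beside the detected spots within 8 rows and 8 columns (black bar: median, grey bar: 5th to 95th percentile). Sod1 on replicate 2 lies above the grey bar, while Sod2 on replicate 4 and the first Gpx4 probe on replicate 3 lie inside bars that are themselves shifted down.

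The same measure was taken for Sod1. Its deviation of 0.55 on replicate 2 stood beside a median of 0.07 for 77 surrounding spots, of which 74 were at or below it. With the surroundings subtracted, replicate 2 remained highest, at 7.64 against 7.09, 7.11 and 7.26 on replicates 1, 3 and 4. Neither Sod1 nor Sod2 lay in one of the bright regions found on these arrays.

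Sod3, the dismutase secreted into the extracellular space, gave a weak but repeated signal. Its probe was printed 10 times, and after flagged spots were left out 6 of 7, 6 of 10, 7 of 10 and 9 of 10 spots were well above background on replicates 1 to 4. The geometric mean intensities over spots were 17.4, 14.9, 17.1 and 20.3, where 95% of the 308 negative-control spots lay at or under 3.41, 3.02, 3.51 and 3.31. The levels of -2.51, -2.49, -2.56 and -2.65 had an SD of 0.068 (n = 4), larger than in 7.3% of detected genes. Because the 10 spots were averaged, this SD is not comparable with that of a probe printed once. The spots of replicate 1 had an SD of 0.13, and those of replicates 2, 3 and 4 had SDs of 0.38, 0.39 and 0.35. The levels of the 4 arrays spanned 0.15.

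For probes printed at least 3 times the arrays were compared with the spread of spots within an array (limma, moderated F test, Benjamini-Hochberg adjustment over 1350 probes). This test asks whether the arrays differ beyond spot noise and says nothing about particles, and 82.1% of the probes passed it, or 86.8% of those detected on all 4 arrays. Sod3 did not pass (adjusted p = 0.804), and its largest difference, replicate 4 minus replicate 2, was -0.15 ± 0.15 (SE). With the array median as scale and with normexp correction it did pass (adjusted p = 0.000174 and 6.9e-08). Over its other alternatives the adjusted p lay between 0.0849 and 0.925.

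Cat, the peroxisomal enzyme that splits hydrogen peroxide without a reducing partner, had intensities of 86.2, 87.5, 91.7 and 126 on replicates 1 to 4. Its levels were -0.21, 0.06, -0.14 and -0.01, with a mean of -0.07 ± 0.12 (SD, n = 4). Unscaled, replicate 4 was highest by a wide gap, and scaling brought it inside the range of the others. With the surroundings subtracted on all 4 arrays the Cat levels were -0.26, 0.135, -0.252 and 0.089, and the SD rose to 0.213. The scaled levels before this subtraction had a range of 1.21-fold over the arrays. The scanner software's own error for this spot was 10.2% to 10.6% of the signal. The part of this error in the range was not tested.

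Gpx1, the main glutathione peroxidase of cytosol and mitochondria, was measured by 2 probes of 10 spots each. On replicates 1 to 4 the first probe stood at 7.39, 7.12, 7.30 and 7.32. The second stood at 6.49, 6.31, 6.57 and 6.41. Their means were 7.28 ± 0.12 and 6.45 ± 0.11 (SD, n = 4). Both were lowest on replicate 2, by 0.22 and 0.18 against the mean of the other arrays.

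Both Gpx1 probes passed the test between arrays (adjusted p = 0.00583 and 0.0184, limma). For pairs of arrays the Benjamini-Hochberg adjustment ran jointly over all pairs and all probes printed at least 3 times. For the first probe replicate 2 lay below replicate 1, with a difference of -0.27 ± 0.07 (SE, adjusted p = 0.00181, limma). Replicates 3 and 4 exceeded replicate 2 by 0.18 ± 0.07 and 0.20 ± 0.07 (SE, adjusted p = 0.0412 and 0.0172, limma). For the second probe only replicates 2 and 3 passed 0.05, differing by 0.26 ± 0.08 (SE, adjusted p = 0.0072, limma). Its replicates 1 and 2 came close (adjusted p = 0.0508, limma). Without replicate 2 neither probe passed (adjusted p = 0.483 and 0.246), and without replicate 3 the second did not (adjusted p = 0.168). With quantile normalization or the percentile over detected probes the second probe did not pass either (adjusted p = 0.462 and 0.117, limma). Within an array the spots of the first probe spread most on replicate 3, from 10120 to 19860, and those of the second on replicate 4, from 6635 to 13950.

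**Figure D3:**
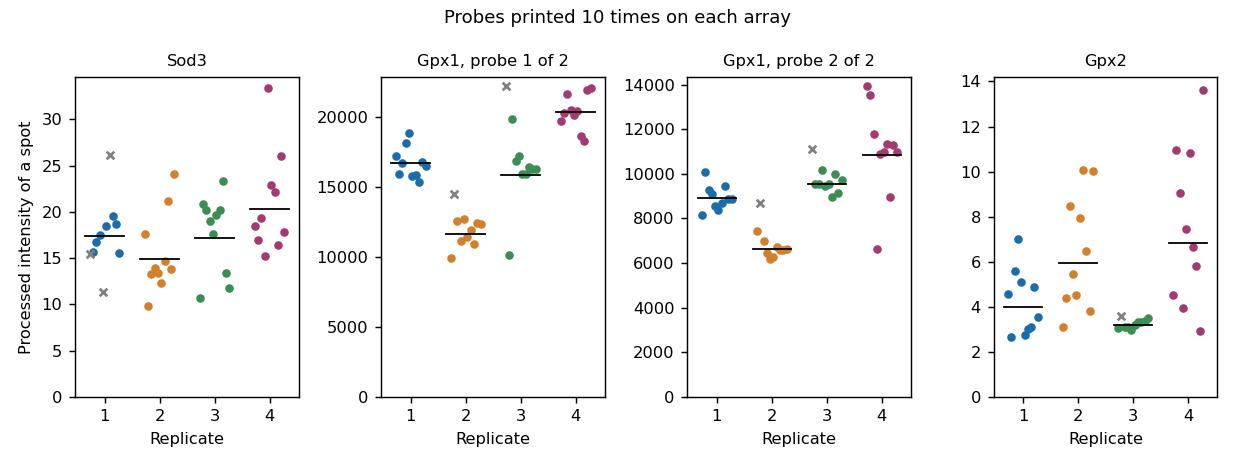
Processed intensity (linear axis from 0) of every spot of the 4 probes printed 10 times, by replicate; black bars mark the mean of the log2 values of the spots used, and grey crosses are spots flagged by the scanner software and left out. Gpx1 intensities are lowest on replicate 2 for both probes, Sod3 spots overlap between all arrays, and Gpx2 spots stay under 14 throughout.

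Gpx4, which reduces lipid hydroperoxides inside membranes and is known as the enzyme that holds back ferroptosis, was measured by 2 probes of 1 spot each, both assigned to the same transcript. The first had levels of 9.05, 8.89, 8.32 and 8.78 on replicates 1 to 4 (mean 8.76 ± 0.32, SD, n = 4). The second had 6.14, 5.91, 6.16 and 6.03 (mean 6.06 ± 0.12, SD, n = 4). The probes disagreed on replicate 3, where the first lay at -0.59 against the mean of the other arrays and the second at 0.13. Around the first spot, 115 detected spots had a median deviation of -0.35 on replicate 3, and those around it on replicates 1, 2 and 4 had 0.26, 0.16 and -0.01. With the surroundings subtracted on all 4 arrays the levels were 8.86, 8.77, 8.59 and 8.79 with an SD of 0.12, and with those of replicate 3 alone the SD was 0.19. Around the second spot the median deviation on that array was 0.10.

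The remaining glutathione peroxidases were at or near background. Gpx2, best known from the lining of the gut, was printed 10 times, and none of its spots was well above background on any array. Its geometric mean intensities were 4.01, 5.95, 3.21 and 6.82. On replicates 1, 2 and 4 these exceeded the 3.41, 3.02 and 3.31 that bounded 95% of the negative-control spots. That bound is for single spots and not for means, and the highest negative-control spots reached 9.08, 46 and 9520 on these arrays. Its test between arrays passed (adjusted p = 0.000223, limma) on these low values, but not with the array median as scale (adjusted p = 0.163). On replicate 3, 1 of 9 spots was significantly above 0 by the scanner software's flag, against 6 of 10, 10 of 10 and 9 of 10 on replicates 1, 2 and 4. For spots that were not, the file carries the estimated error in place of a signal in 98.2% to 100% of cases (within 1%), so such values have no order. Gpx3, the secreted enzyme of plasma, had intensities of 3.73, 3.604, 3.18 and 2.75. None was well above background, and those of replicates 1 and 2 were significantly above 0 by the flag. Gpx7, an enzyme of the endoplasmic reticulum, had intensities of 8.80, 3.29, 2.54 and 15.4. It was significantly above 0 on replicates 1, 2 and 4, and well above background on replicate 4 alone. That array also detected the most named genes, 9985, where the others detected 8917 to 9241.

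The spread of the 6 detected members over the arrays had a median SD of 0.205, beside 0.165 for all 8424 detected genes, whose central 50% lay between 0.112 and 0.239. The order turned when 1 array was left out: without replicate 2, 3 or 4 the members had 0.127, 0.14 and 0.138 beside 0.162, 0.15 and 0.155 for the detected genes, and without replicate 1 they had 0.199 beside 0.151. Sod1, Sod2 and the first Gpx4 probe had SDs of 0.30, 0.29 and 0.32, larger than in 86.1%, 84.2% and 88.1% of detected genes. Sod3, Cat and Gpx1 had SDs of 0.068, 0.12 and 0.12, larger than in 7.3%, 30% and 26.2%. Sod3 and Gpx1 were averaged over up to 10 spots per array and the other 4 over 1 spot. Among Sod1, Sod2 and the first Gpx4 probe, the array that stood out differed. Sod1 was highest on replicate 2, Sod2 lowest on replicate 4 and the first Gpx4 probe lowest on replicate 3. Other extremes were shared: Sod2 (narrowly), Sod3 and Cat were also highest on replicate 2, and Sod3 was also lowest on replicate 4. Both Gpx1 probes and the second Gpx4 probe were lowest on replicate 2. With the array median as scale Sod1 was instead highest on replicate 3 and the first Gpx4 probe lowest on replicate 4. Without scaling Sod1 was highest on replicate 4 and Sod2 lowest on replicate 2. The order of the SDs also depended on scaling: with the array median they were 0.25 for Sod1 and Cat, 0.27 for Gpx4, 0.35 for Sod3, 0.39 for Gpx1 and 0.53 for Sod2. With all probes of a gene averaged the SD of Gpx4 was 0.147 and the median SD of the members 0.135.

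**Figure D4:**
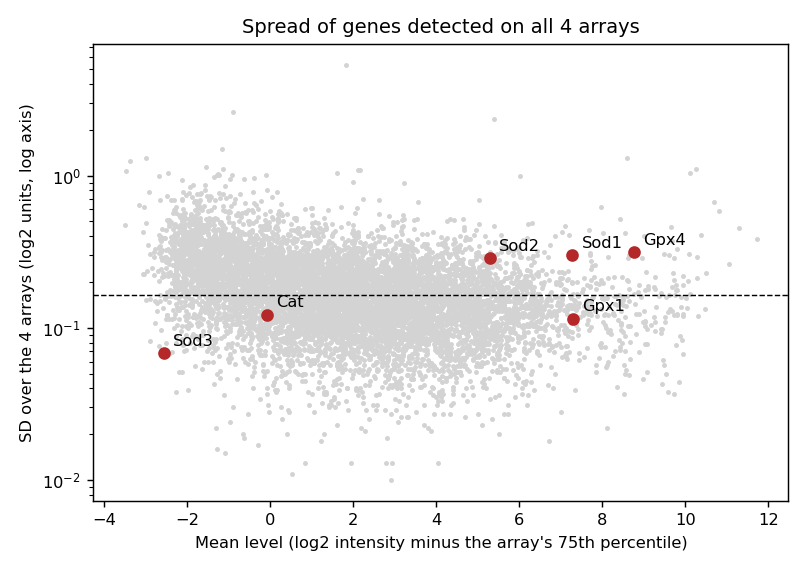
SD over the 4 arrays (log axis, log2 units) against mean level for the 8424 named genes detected on all 4 arrays (grey), with the 6 detected antioxidant enzyme genes in red and the median SD of all detected genes, 0.165, as a dashed line. Sod1, Sod2 and Gpx4 lie above the line, and Sod3, Cat and Gpx1 below it.

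The partners of these enzymes were counted in 8 lists. Of 53 genes 51 were measured, and 41 of them (80.4%) were detected on all 4 arrays, beside 50.8% of all named genes. None of the 41 had 1 array apart by Dixon's test, beside 5.35% of all detected genes. Their median SD was 0.143, beside 0.165 for all detected genes. The lists were chosen for their link to these enzymes, and the counts are a description of them.

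All 4 genes of copper delivery were detected, among them Ccs, the chaperone that loads copper into SOD1, at 3.48 ± 0.11 and the copper importer gene Slc31a1 at -1.07 ± 0.11 (SD, n = 4). All 7 measured genes of selenocysteine insertion were detected, including Sephs2, which makes the selenium donor, at 3.07 ± 0.14, and Sepsecs, which makes the selenocysteine tRNA, at 1.39 ± 0.23 (SD, n = 4). Lrp8 had no named probe. For glutathione supply 5 of 6 genes were detected, with the glutathione reductase gene Gsr at 0.70 ± 0.10 (SD, n = 4). The exception was Gclm, the modifier subunit of glutamate-cysteine ligase, detected on no array by its 1 probe, while the catalytic subunit gene Gclc was detected at 3.86 ± 0.19 (SD, n = 4).

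All 6 peroxiredoxin genes were detected, among them Prdx1 at 6.19 ± 0.11 and Prdx2 at 6.34 ± 0.08 (SD, n = 4). All 6 genes of the thioredoxin list were detected too, with Txn1 at 9.40 ± 0.09 and the mitochondrial Txn2 at 3.62 ± 0.16 (SD, n = 4). Of 9 measured genes of enzymes that make superoxide or hydrogen peroxide, 5 were detected: the phagocyte oxidase genes Cybb (1.67 ± 0.15), Cyba (9.79 ± 0.12), Ncf1 and Ncf4, and the xanthine dehydrogenase gene Xdh (SD, n = 4). The oxidase genes Nox1, Nox4, Duox1 and Duox2, known from other cell types, were detected on no array. Among 10 genes of import into peroxisomes, where catalase works, 8 were detected, with the receptor gene Pex5 at 1.25 ± 0.28 and Pex7 at 0.11 ± 0.15 (SD, n = 4). Pex13 was detected on 1 array and Pex26 on none. Of the further glutathione peroxidase genes, Gpx5 and Gpx6 were detected on no array and Gpx8 on 1, replicate 4, which was also the sole array for Gpx7.

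**Figure D5:**
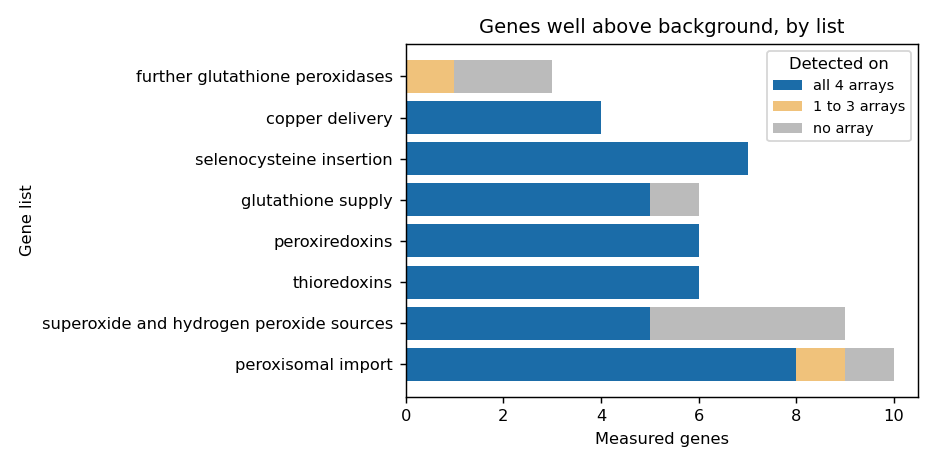
Number of measured genes in each of the 8 lists (horizontal axis) that were well above background on all 4 arrays, on 1 to 3 arrays or on no array. The copper, selenocysteine, peroxiredoxin and thioredoxin lists are complete, and none of the 3 further glutathione peroxidases was detected on all arrays.

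Promoter windows were read for 8 of the 9 genes from RefSeq (build GRCr8), each with 250 bases before and 50 after the gene start, and Gpx4 has 3 windows and the others 1. Both strands were searched for the core of the antioxidant response element, through which NRF2 acts, spelled TGACNNNGC. A match is a description of letters and shows no binding. This core was found in Sod2 and Gpx2, beside 12.1% of 33469 windows. The TATA-box letters TATAAA were found in Sod1 alone, beside 14.2% of windows. The GC-box letters GGGCGG were found in Sod1, Sod2, Gpx1, Gpx3, Gpx7 and every window of Gpx4, beside 33.1% of windows, but 61.6% of the genes detected on all 4 arrays and 31.2% of those detected on none. The letters CCAAT were found in Sod1, Gpx2, Gpx3, 2 of the 3 windows of Gpx4 and 5 times in Cat, beside 37.5% of windows.

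The 250 bases before the start are shown 5′ to 3′ on the gene's strand for Sod1, which holds the TATA box, and for Sod2 and Gpx2, which hold the antioxidant response element core. One of these 3 genes, Gpx2, was not detected in the cells. Capitals mark any of the searched motifs. They lie at chr11:42942573-42942822 (plus strand), chr1:50050169-50050418 (minus strand) and chr6:101230034-101230283 (minus strand).
Sod1: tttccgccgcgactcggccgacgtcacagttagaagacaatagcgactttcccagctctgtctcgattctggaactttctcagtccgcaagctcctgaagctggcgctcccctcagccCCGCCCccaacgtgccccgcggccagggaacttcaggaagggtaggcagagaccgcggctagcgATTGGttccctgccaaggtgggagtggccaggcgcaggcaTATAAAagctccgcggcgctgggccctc
Sod2: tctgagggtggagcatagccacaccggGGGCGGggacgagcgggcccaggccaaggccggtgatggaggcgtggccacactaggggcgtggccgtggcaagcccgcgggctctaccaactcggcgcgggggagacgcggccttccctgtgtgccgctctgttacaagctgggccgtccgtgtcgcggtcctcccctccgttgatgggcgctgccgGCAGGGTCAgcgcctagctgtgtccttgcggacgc
Gpx2: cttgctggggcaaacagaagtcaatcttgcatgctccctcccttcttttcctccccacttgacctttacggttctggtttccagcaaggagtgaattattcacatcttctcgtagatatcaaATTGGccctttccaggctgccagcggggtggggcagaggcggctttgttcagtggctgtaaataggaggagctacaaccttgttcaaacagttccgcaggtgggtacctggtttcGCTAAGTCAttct

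In Sod1 the TATA box begins 28 bases before the start. The core lies on the reverse strand in both genes that hold it, beginning 35 bases before the start in Sod2 and 13 in Gpx2, and it overlaps no other searched motif. The windows also differed in base composition. G and C made up 72% of the Sod2 window, 66% of the first Gpx4 window and 61.3% of that of Sod1, with 36, 31 and 26 CpG pairs, against 50.3% and 6 CpG pairs in Gpx2 and 54.7% and 12 in Gpx3. Over all genes with a window, the median was 60.3% with 21 CpG pairs for 7040 genes detected on all arrays and 51.7% with 6 for 4913 genes detected on none. In share of G and C, Cat (59.3%) and Gpx1 (58.7%), both detected on all arrays, were close to Gpx7 (59%), detected on 1. With 13 and 12 CpG pairs they had fewer than Gpx7, with 19, and about as many as the undetected Gpx3, with 12. The undetected Gpx2 and Gpx3 had the lowest shares of G and C among the 8 genes. Both shares still lay inside the 5th to 95th percentile of the genes detected on all arrays, 44% to 75.3%. For the genes detected on none these percentiles were 32% and 73.3%, so the shares of detected and undetected genes overlapped widely.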

How the data were processed

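Total RNA of 4 samples of 1 group was measured. The authors deposited linear intensity values for each spot, and the submitters' processing notes name Agilent Feature Extraction 11.0.1.1. Per the file headers these are 1-colour processed signals. The deposited scanner flags (well above background, outlier, control) were used as given. Files of control cells were not analysed here. Accessions without versions were matched to the RefSeq table of GRCr8, naming 21109 of 45598 probes; the array grid is on rn4, so no probe coordinates are given, and cross-hybridisation was not checked.

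Flagged spots were left out (750 to 1551 per array), log2 signals were averaged per probe, and the 75th percentile over all probes was subtracted. A gene's level is that of its brightest probe measured on all arrays. No spot was saturated. The 4 arrays share 1 slide and scan. Arrays were compared over repeated spots with limma 3.58.1 (R 4.3.3), tested on simulated data, with an adjusted p threshold of 0.05, and single arrays with Dixon's test; figures used Python 3.11.15 and matplotlib 3.10.9. All members were named with all their probes, and of each list the first 2 measured genes and the exceptions, apart from some that are not reported here; genes were not matched by pattern because 4 arrays are too few. The members and lists were chosen with earlier results of these data known. The number of arrays limits the precision. Motif searches, base composition, the comparison with surrounding spots and the remaining genes named with values were chosen after the data were seen.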

Additional observations from a re-analysis of the deposited data

Results flagged for a closer look

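Sod2 on replicate 4, at a level of 4.85 beside 5.43, 5.44 and 5.41, stood apart from the other arrays by Dixon's test, which chance passes in about 1 of 20 groups of samples. Spots around it had a median deviation of -0.18 on that array and of 0.31 on replicate 3. With the surroundings subtracted on all arrays the gap was 0.383 of the range, under the critical value. With them subtracted on replicate 4 alone it was 0.943, past it, and on replicate 3 alone 0.581. What share of the Sod2 value the position on the slide accounts for was not tested.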

How the results depend on the processing

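The count of 6 detected members was the same under 9 of 10 alternatives and was 7 with the less strict flag, which added Gpx2. Asking for 3 of 4 arrays, keeping flagged spots or leaving out 1 replicate could add members but not remove any. The median SD of the detected members ranged from 0.127 to 0.309 over all alternatives (without a replicate: 0.127 to 0.199). The number of members with 1 array apart was 0 with the array median, quantile normalization, normexp or surrounding spots subtracted on all arrays, and 2 (Sod2 and Sod3) without bright regions; without scaling it was 1, but this was Cat. In the test over repeated spots (adjusted p, limma), Sod3 passed with the array median (0.000174) and normexp (6.9e-08), Gpx2 did not with the array median (0.163), and the second Gpx1 probe did not with quantile normalization (0.462) or the percentile over detected probes (0.117). Leaving out 1 replicate gave 6.2e-05 to 0.483 for the first Gpx1 probe, 4.06e-06 to 0.246 for the second, 0.000042 to 0.0258 for Gpx2 and 0.601 to 0.925 for Sod3. The cause was not tested. Member levels moved by more than 1 SD for all 9 genes when the array median or the detected probes set the scale, for 8 with normexp and for 2 with all probes averaged, and for none under the other alternatives. Scaling set the median level of all detected genes at 1.80, 5.33 with the array median, -1.61 with detected probes and 1.28 with normexp. Normexp was run on median signals, not on mean signals as planned. No paired analysis was possible because there is 1 group. Signals near background limit what can be said of Gpx2, Gpx3 and Gpx7.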
